A study of Mus musculus with 8 samples.

Results

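T29 cells carrying the Ik1ER construct were compared with T29 cells carrying the empty vector while neither had received the inducer, on 4 of the 8 arrays of the series. The 2 arrays of the group labelled MigR1-Ik1ER with ethanol were set against the 2 labelled MigR1 with ethanol, and 18193 genes entered the comparison. T29 is a mouse thymic lymphoma line, and the design text of the series describes it as lacking Ikaros. Both lines were transduced with the retroviral vector MigR1, a vector that also carries a green fluorescent protein gene, either empty or with the inducible Ikaros protein. Ethanol is the solvent of 4-hydroxytamoxifen (4OHT) and was given for 24 h. The remaining 4 arrays hold the same 2 lines after 24 h in 100 nM 4OHT and gave a reading of every gene from other arrays. The labels name 1 line per construct, with no word on clones or on separate transductions, so the construct and the history of the line cannot be told apart. Nor do they name separate cultures behind replicate arrays, so a p-value here weighs a difference against a spread that may be purely technical.

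Ikaros, the product of Ikzf1, binds DNA through zinc fingers and recruits chromatin remodelling complexes to its target genes in lymphocyte precursors, and its loss is a frequent step towards T cell leukaemia in mice. In proteins such as Ik1ER the hormone-binding part of the estrogen receptor holds the fused factor inactive, bound to heat shock proteins, until 4OHT binds. Some activity without ligand, called leak, is known of such fusions in general. A comparison of the lines without the inducer therefore reads leak together with any lasting difference between the transduced populations.

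All 9 T cell markers measured read above 5.27 on the log2 scale, the level of the brightest of 27 control probe sets for Bacillus genes (the control level), from 7.03 for Cd4 to 13.54 for Cd3d, the chain of the T cell receptor complex. Their summed log2 levels were 99.3 and 100.2 on the MigR1 ethanol arrays and 99 and 100 on the Ik1ER ethanol arrays. Of the markers of other cells, 1 of 5 B cell genes (Pax5, mean 5.92), 3 of 6 myeloid genes, 2 of 4 natural killer genes (Gzma among them, mean 12.83), 1 of 3 erythroid genes and 2 of 6 stromal and endothelial genes read above that control level. Their summed log2 levels overlapped between the lines except for the natural killer genes, at 25.8 to 26.4 in MigR1 and 25.6 on both Ik1ER arrays. Replicate 2 of Ik1ER in ethanol stood apart in its control probe sets. The transferrin receptor 3' probe set exceeded its 5' probe set by 1.66 there, against 1.16 to 1.39 on the other 3 ethanol arrays, and 18S rRNA read 10.07 against 8.69 to 9.11. In 4OHT, Ik1ER replicate 2 likewise had the largest transferrin receptor difference, 1.908 against 1.155 to 1.372 on the other 4OHT arrays. Its 18S rRNA read 9.18, against 8.54 to 8.97 on those arrays. The number of arrays limits the precision of every value below.

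Without the inducer few genes stood far apart between the 2 lines. limma called 0 of 18193 genes (0%) at an adjusted p under 0.05, and the smallest adjusted p was 0.267. At an unadjusted p under 0.05 there were 955 genes (5.25%), 553 higher (3.04%) and 402 lower (2.21%) in Ik1ER cells. Adm and Esr1 alone of the 18193 differed by at least 1 on the log2 scale, that is, by at least 2-fold. The 95% interval of the difference lay inside 1 in both directions for 18113 genes (99.6%) and inside 0.5 for 16567 (91.1%). The SD over genes of the log2 difference between 2 arrays was 0.147 for the MigR1 replicates and 0.174 for the Ik1ER replicates. Between an Ik1ER and a MigR1 array it was 0.146 to 0.188, close to the replicates. In 4OHT the same SD was 0.157 and 0.214 between replicates and 0.261 to 0.289 between lines, and limma called 928 genes (5.1%), 532 higher (2.92%) and 396 lower (2.18%). That count was 293 without MigR1 4OHT replicate 1, 242 without MigR1 4OHT replicate 2, 429 with the 4 4OHT arrays alone and 594 without both Ik1ER replicate 2 arrays. The ethanol count was 0 without any 1 of the 8 arrays and without both Ik1ER replicate 2 arrays.

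The construct encodes Ikaros, and 1 of the 2 Ikzf1 probe sets read far higher in Ik1ER cells. It read 8.12 and 8.14 on the MigR1 ethanol arrays and 11.17 and 10.60 on the Ik1ER ethanol arrays. Every Ik1ER array lay far above every MigR1 array. The difference of 2.75 (SE 0.28, 95% interval 2.11 to 3.39, 6.74-fold) had the smallest p of all 45037 probe sets when each was tested on its own, yet its adjusted p was 0.274, and limma called 0 probe sets (0%). At an unadjusted p under 0.05 there were 2881 probe sets (6.4%). In 4OHT the same probe set was called, with a difference of 2.52 (adjusted p = 0.00527). Over both treatments the 4 Ik1ER arrays exceeded the 4 MigR1 arrays by 2.64 (two-sided exact permutation test, p = 0.0286, which is the lowest possible for 4 arrays against 4). That test takes the 4 arrays of a line as independent, although same-numbered arrays of a line shared part of their deviations across treatments. Adjusted over the 5 probe sets of Ikzf1 and Esr1, the exact permutation p was 0.0714, and 2 against 2 arrays could not go below an exact p of 0.333. The other Ikzf1 probe set, used for Ikzf1 in the gene tests because its mean over 8 arrays was higher, read 10.36 and 10.20 in MigR1 and 10.16 and 10.44 in Ik1ER cells, a difference of 0.02 (95% interval -0.28 to 0.32 in the fit of every probe set). Both Ikzf1 probe sets thus read above the control level in MigR1 cells, although the line is described as lacking Ikaros. Which parts of the construct and of the cells' own Ikzf1 RNA each probe set reads was not tested. When the probe sets of each gene were averaged instead, Ikzf1 was the 1 gene that limma called in ethanol, at 1.39 (SE 0.10, adjusted p = 0.0122).

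Esr1 encodes estrogen receptor alpha, the source of the hormone-binding part in fusions of this kind. Its brightest probe set read 5.68 and 6.42 on the MigR1 ethanol arrays and 7.38 and 6.94 on the Ik1ER ethanol arrays, without overlap. The difference of 1.11 (SE 0.28, 95% interval 0.47 to 1.75, adjusted p = 0.920) was not called. Its 2 other probe sets, both below the control level, differed by -0.03 and 0.01. Over both treatments the first differed by 0.88 (exact permutation test, two-sided, p = 0.0286, adjusted over the 5 probe sets 0.0714). The limit given for the Ikzf1 test applies to this test too. None of the 4 relatives of Ikzf1 was called, where 0% of all genes were. Ikzf5 differed by 0.21, Ikzf4 by -0.08, Ikzf2 (Helios) by -0.06 and Ikzf3 (Aiolos) by 0.01, each on its brightest probe set. Both other Ikzf2 probe sets, above the control level, read -0.37 in ethanol, without a call, and 0.34 and -0.35 in 4OHT. The other probe sets read 0.00 for Ikzf5, 0.03 and -0.06 for Ikzf4, and -0.13 and 0.09 for Ikzf3 in ethanol. Every Ikzf4 probe set, and the Ikzf3 probe set at 0.09, had a mean below the control level, where a small difference could not be seen. The subunits of the NuRD complex, the chromatin remodeller that Ikaros binds, had 0 of 13 called, with values from -0.21 (Rbbp4) to 0.05 (Hdac1).

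**Figure D1:**
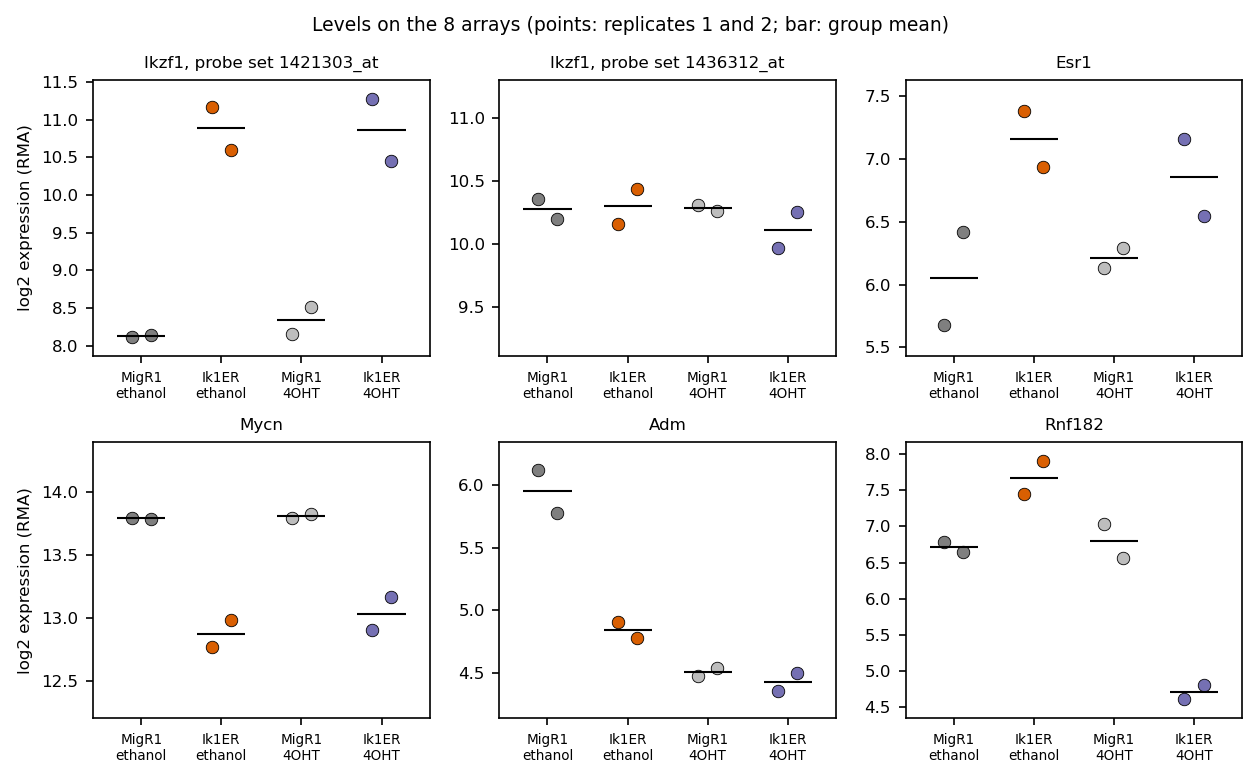
Log2 expression on each of the 8 arrays (vertical axis) for 2 probe sets of Ikzf1 and for Esr1, Mycn, Adm and Rnf182, by line and treatment (horizontal axis), with points for the 2 replicates and a bar for their mean. The Ikzf1 probe set of the first panel and Esr1 are high and Mycn low in Ik1ER cells in both treatments, Adm is high in MigR1 cells in ethanol, and Rnf182 is highest in Ik1ER cells in ethanol and lowest in Ik1ER cells in 4OHT.

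Since no gene was called, the 10 genes of smallest p in each direction are given as values, not as changes. Their 2 groups did not overlap in any of the 20, which follows largely from choosing them by p on these same arrays. Among all genes 37.5% had groups without overlap, 20.7% higher and 16.8% lower. Among those lower in Ik1ER cells was Mycn, which encodes N-Myc, a driver of growth and of lymphoid tumours. It read 13.80 and 13.79 on the MigR1 ethanol arrays and 12.77 and 12.98 on the Ik1ER ethanol arrays. The difference was -0.92 (SE 0.11, 95% interval -1.17 to -0.67, adjusted p = 0.267). The other 4 arrays gave the same picture, with 13.80 and 13.83 in MigR1 and 12.90 and 13.17 in Ik1ER cells, and limma called that difference (-0.78, adjusted p = 0.00737). It was not called without MigR1 4OHT replicate 1 (adjusted p = 0.0519) or MigR1 4OHT replicate 2 (adjusted p = 0.0644), nor with the mean over its probe sets (-0.32, adjusted p = 0.0515). The line difference of Mycn did not differ detectably between treatments (0.14, 95% interval -0.21 to 0.49). Its 2 other probe sets, both below the control level, read -0.05 and -0.06.

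Adm had the smallest p of all genes in ethanol, with each gene read on its brightest probe set. It encodes adrenomedullin, a vasodilator peptide whose gene is a textbook target of the hypoxia-inducible factors. It read 6.12 and 5.78 on the MigR1 ethanol arrays and 4.91 and 4.78 on the Ik1ER ethanol arrays, a difference of -1.10 (SE 0.12, 95% interval -1.37 to -0.83, adjusted p = 0.267). On the 4OHT arrays it read 4.48 and 4.54 in MigR1 and 4.36 and 4.50 in Ik1ER cells, a difference of -0.07 (adjusted p = 0.815). The MigR1 ethanol group was thus the high one of the 4 groups, and the other 3 lay below the control level on this probe set. The line difference of Adm differed between the treatments by 1.03 (adjusted p = 0.0328), a call that held without MigR1 ethanol replicate 2 but not without any of the 7 other arrays (adjusted p up to 0.136). With the mean over its probe sets the value was 0.77 (adjusted p = 0.0514). Its other probe set, above the control level in all 4 groups, differed by -0.63 in ethanol and by -0.11 in 4OHT. With every probe set tested on its own, those of Ikzf1 (2.75) and Dock8 (-0.77) had a smaller p than Adm. A probe set shared by Rbm3 and Rbm3-ps (-0.86) and that of Marf1 (-0.68) came between Adm and Mycn. None of these was called.

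Ankrd37, another gene known to be induced by the hypoxia-inducible factors, had the smallest p of the 18 measured genes of glycolysis and hypoxia. It read 9.37 and 8.87 in MigR1 and 8.14 and 8.52 in Ik1ER cells in ethanol, a difference of -0.79 (SE 0.18, 95% interval -1.20 to -0.38, adjusted p = 0.880). On the 4OHT arrays the values were 8.30 and 8.22 in MigR1 and 8.50 and 8.69 in Ik1ER cells, so that MigR1 cells in ethanol, replicate 1 above all, were again the high group. The glucose transporter gene Slc2a1 (10.28 and 9.83 against 9.23 and 9.73) and the hexokinase gene Hk2 (9.82 and 9.39 against 9.02 and 9.23) followed, with differences of -0.57 and -0.48. In both genes MigR1 replicate 1 was the highest of the ethanol arrays as well. On the 4OHT arrays Slc2a1 differed by -0.24 and Hk2 by -0.57, neither of them called, so the Hk2 difference was not limited to ethanol. The list as a whole did not shift, with 9 of 18 genes above 0 and a median of 0.00, beside 0.01 over all genes. The enzymes of lower glycolysis read almost alike, Pkm at 0.02, Ldha at -0.01 and Pgk1 at 0.05.

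The 250 bases before the transcript start are printed for these genes from the RefSeq table (assembly GRCm38.p6). The genes were chosen because Adm and Mycn had the smallest p-values of the gene tests in ethanol and Ankrd37 the smallest of its list. Capitals mark matches on either strand to TGGGAA, the core that Ikaros recognises, and to ACGTG or GCGTG, the cores of the hypoxia response element. The Adm window lies at chr7:110627407-110627656 on the plus strand, Ankrd37 at chr8:45999851-46000100 on the minus strand and Mycn at chr12:12941837-12942086 on the minus strand.
Adm: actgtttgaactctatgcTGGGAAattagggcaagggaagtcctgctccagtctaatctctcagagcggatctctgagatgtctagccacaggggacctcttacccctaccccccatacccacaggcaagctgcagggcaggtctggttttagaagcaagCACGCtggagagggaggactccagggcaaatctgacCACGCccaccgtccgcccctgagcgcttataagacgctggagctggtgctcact
Ankrd37: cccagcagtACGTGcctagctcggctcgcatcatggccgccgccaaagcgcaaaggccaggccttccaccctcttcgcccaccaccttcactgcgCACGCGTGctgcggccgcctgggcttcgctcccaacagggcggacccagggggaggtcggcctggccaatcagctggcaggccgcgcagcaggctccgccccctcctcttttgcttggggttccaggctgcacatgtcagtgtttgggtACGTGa
Mycn: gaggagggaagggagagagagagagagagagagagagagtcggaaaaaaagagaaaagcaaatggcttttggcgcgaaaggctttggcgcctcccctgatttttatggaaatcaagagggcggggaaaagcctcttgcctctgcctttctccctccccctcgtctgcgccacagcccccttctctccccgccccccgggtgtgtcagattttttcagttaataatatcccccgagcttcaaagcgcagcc
The Adm window holds 1 match to TGGGAA and 2 to GCGTG. The Ankrd37 window holds 2 matches to ACGTG and 2 to GCGTG, the latter pair overlapping each other on opposite strands. The Mycn window holds none of the 3 motifs. Of all 32851 such windows in the table, 21.6% hold TGGGAA, 16.6% ACGTG and 28.2% GCGTG, and a match describes these letters only.

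The other 8 genes of smallest p on the lower side ranged from -0.79 to -0.48. They were the monocarboxylate transporter gene Slc16a4 (-0.79), the centriole gene Cep295 (-0.70), A530088E08Rik (-0.59) and the mitochondrial uncoupling protein gene Slc25a27 (-0.59). The rest were 4833447I15Rik (-0.54), the cation channel gene Trpc2 (-0.52), Taf1d (-0.50), which encodes a subunit of the RNA polymerase I selectivity factor, and the olfactory receptor gene Olfr288 (-0.48), which lay below the control level. Another probe set of Slc25a27 above the control level read -0.01. Taf1d was also called lower on the 4OHT arrays (-0.62, adjusted p = 0.00764, and 0.0657 without MigR1 4OHT replicate 1). Its 7 probe sets disagreed, however, since 3 of them lay above 0 in ethanol, at 0.25, 0.11 and 0.09. On the 4OHT arrays 8 of the 10 lower genes were again below 0, with a median of -0.20, and 2 were called lower, Mycn and Taf1d.

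On the higher side the values were smaller. Pax7, a paired box factor of muscle stem cells, read 5.35 and 5.18 in MigR1 and 6.32 and 6.14 in Ik1ER cells (0.97, SE 0.16, not called), near the control level of 5.27, and its other probe set read -0.14. Rnf182, which encodes a ubiquitin ligase, read 6.78 and 6.64 in MigR1 and 7.45 and 7.90 in Ik1ER cells (0.96, SE 0.18, 95% interval 0.54 to 1.39, not called). Its other bright probe set differed by 0.45. The remaining 8 lay between 0.35 and 0.47. They were the matrix protein gene Npnt (0.47), the kinase gene Sbk1 (0.47), the microtubule gene Eml5 (0.46), the scaffold gene Cnksr3 (0.41), Sgpp1 (0.37), which encodes a sphingosine-1-phosphate phosphatase, Tcp11l2 (0.37), Mturn (0.36) and Clba1 (0.35). Eml5 had 2 other probe sets above the control level, which read -0.20 and -0.11.

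In 4OHT 5 of the 10 higher genes were above 0 and 5 below, with a median of 0.03. Mturn was called higher there (1.28, adjusted p = 0.000277), as was Tcp11l2 (0.35, adjusted p = 0.0485), a call that depended on every array (adjusted p from 0.0533 to 0.262 with 1 of the 8 left out). Rnf182 was called lower there (-2.08, adjusted p = 0.00101). Its line difference thus had opposite signs in the 2 treatments, and limma called the difference between them (-3.04, adjusted p = 0.00322). Of the 20 genes, Npnt, Pax7, Rnf182, Mturn and Adm were those whose line difference differed between the treatments at an adjusted p under 0.05.

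**Figure D2:**
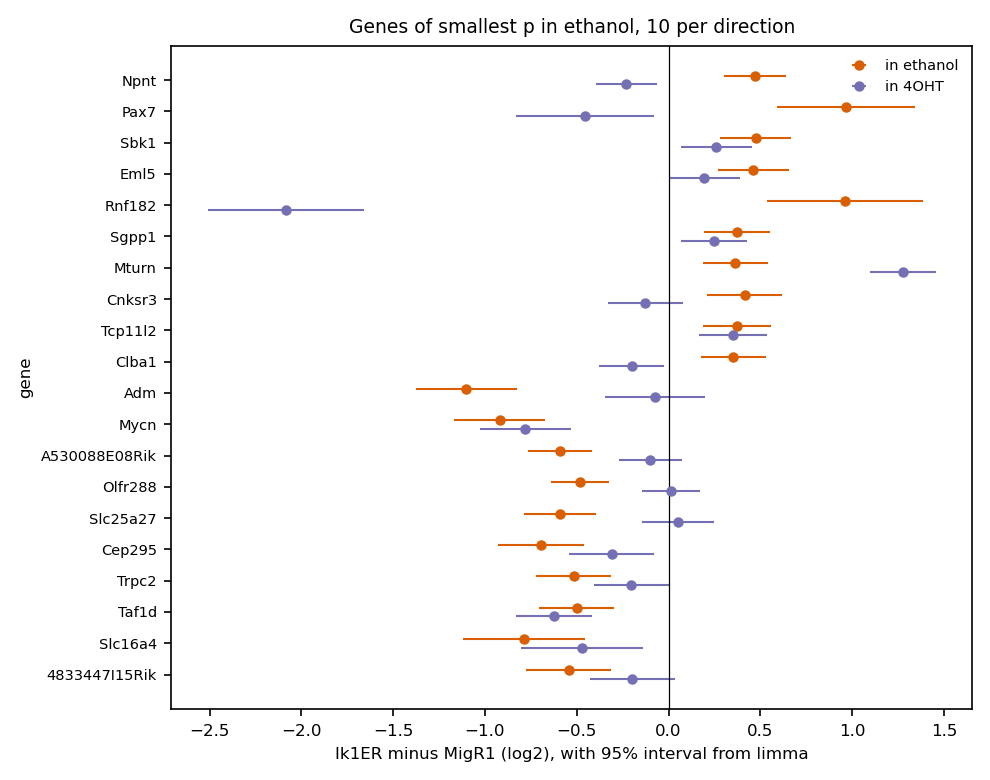
Difference between Ik1ER and MigR1 cells (log2, horizontal axis, with 95% intervals from limma) in ethanol and in 4OHT for the 10 genes of smallest p in ethanol in each direction (vertical axis). Mycn reads -0.92 and -0.78, Adm -1.10 and -0.07, and Rnf182 0.96 and -2.08 in ethanol and 4OHT.

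To ask whether leak could be seen, the genes furthest apart between the lines with the inducer were read without it. These genes were chosen on the 4OHT arrays, so their ethanol values come from other arrays. Ms4a4b, a membrane protein gene of T cells, was 3.22 higher in Ik1ER cells in 4OHT. In ethanol it read 5.55 and 5.43 in MigR1 and 5.52 and 5.95 in Ik1ER cells, with overlap, a difference of 0.24 (95% interval -0.09 to 0.58). Its relative Ms4a4d differed by 2.57 in 4OHT and by -0.14 in ethanol. Pou2af1, which encodes the B cell coactivator OCA-B, differed by 2.37 in 4OHT and by 0.40 in ethanol (8.01 and 7.92 against 8.14 and 8.59, 95% interval 0.03 to 0.77, adjusted p = 0.920). AA467197 (2.06) and Arhgap20 (1.86), a GTPase-activating protein gene, read 0.38 and 0.22 in ethanol. The myosin light chain gene Myl4 (2.05), Gimap7 (1.95), a lymphocyte GTPase gene, the dynein chain gene Dynlrb2 (1.87), the protease inhibitor gene Serpini1 (1.80) and the ion channel gene Mcoln3 (1.78) read within 0.06 of 0 in ethanol. Other probe sets above the control level read -0.27 for Mcoln3, -0.17 for Myl4, 0.16 for Serpini1 and -0.08 for Arhgap20 in ethanol. In 4OHT those of Serpini1 (1.80) and Arhgap20 (1.08) were called, and those of Mcoln3 (1.26) and Myl4 (-0.22) were not. Of these 10 genes 5 were above 0 in ethanol and 5 below, and their median was 0.00, against 2.00 in 4OHT. Ms4a4d, AA467197, Gimap7 and Dynlrb2 lay below the control level on all 4 ethanol arrays, where a small difference could not be seen, and the 6 other genes had a median of 0.11, with 4 above 0.

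The 10 genes furthest below 0 in 4OHT mostly read on the other side in ethanol. Lmcd1, which encodes a LIM domain protein, differed by -2.61 in 4OHT. In ethanol it read 10.79 and 10.73 in MigR1 and 10.98 and 11.39 in Ik1ER cells, a difference of 0.43 (SE 0.14, 95% interval 0.10 to 0.76, adjusted p = 0.920), and the Ik1ER arrays were the higher ones. The small heat shock protein gene Cryab differed by -1.86 in 4OHT and read 6.77 and 6.76 against 7.32 and 7.04 in ethanol, a difference of 0.42 (95% interval 0.16 to 0.67). Its 2 other probe sets read 0.17 and, below the control level, -0.25. The sodium channel subunit gene Scn4b differed by -2.39 in 4OHT and by 0.32 in ethanol (95% interval 0.02 to 0.62). 2300002M23Rik differed by -2.38 and 0.37, and Ifi204, an interferon-inducible gene, by -2.18 and 0.48, with overlapping groups in ethanol. 2310030G06Rik (-1.86) and Uaca (-1.86), an apoptosis regulator gene, read 0.28 and 0.18 in ethanol. The ethanol 95% intervals of 2300002M23Rik, Ifi204, 2310030G06Rik and Uaca included 0. Mpzl2 (-2.91), which encodes an adhesion protein of thymic epithelium, and Ifi202b (-2.34) read -0.07 and -0.02. With Rnf182, 8 of the 10 lay above 0 in ethanol, at a median of 0.34, against -2.26 in 4OHT. None of the 20 genes was called in ethanol. In 4OHT the calls of Mcoln3 without MigR1 4OHT replicate 2 (adjusted p = 0.0789) and of Ifi202b without MigR1 4OHT replicate 1 (0.0618) were lost.

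**Figure D3:**
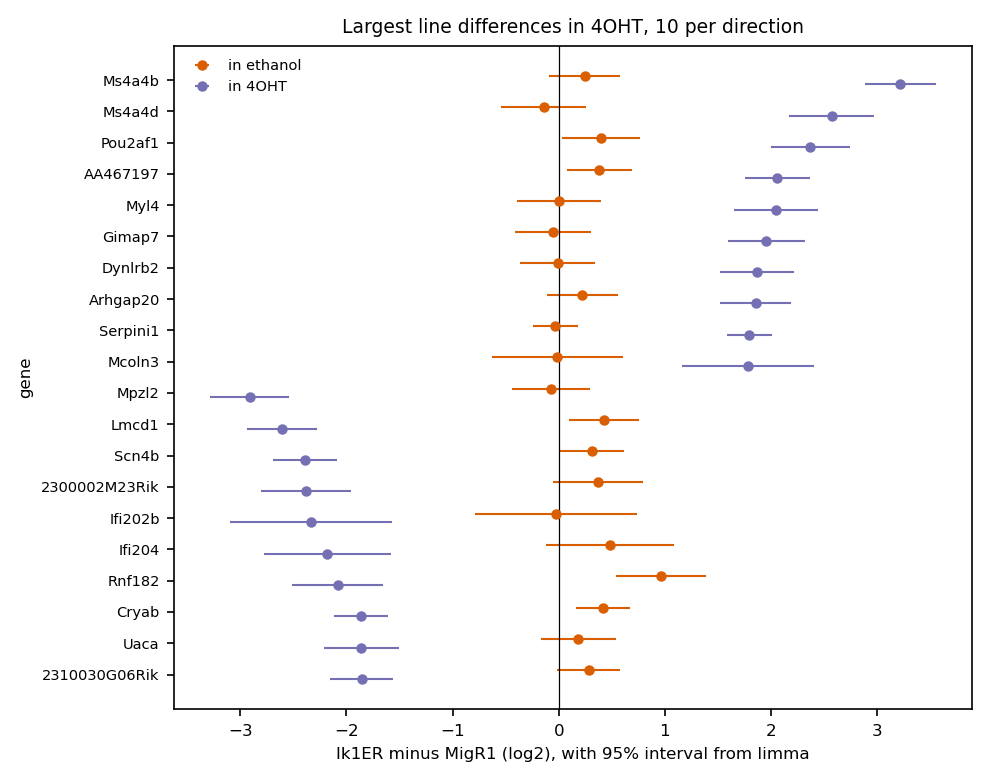
Difference between Ik1ER and MigR1 cells (log2, horizontal axis, with 95% intervals from limma) in ethanol and in 4OHT for the 10 genes furthest above and the 10 furthest below 0 on the 4OHT arrays (vertical axis). In ethanol the upper 10 have a median of 0.00 and the lower 10 a median of 0.34, with 8 above 0.

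Wider sets of genes were read in the same way. Of the 56 genes called lower by at least 1 in 4OHT, 45 (80.4%) were above 0 in ethanol, where 52.9% of all genes were. Their median was 0.22, and 14 had an unadjusted p under 0.05 on the higher side and 1 on the lower side, beside 3.04% and 2.21% of all genes. Leaving out any 1 of the 4 ethanol arrays gave medians from 0.17 to 0.27. Of the 85 genes called higher by at least 1 in 4OHT, 53 (62.4%) were above 0 in ethanol, with a median of 0.02. Of the 85, 16 lay below the control level on all ethanol arrays, and the 69 others also had a median of 0.02. The median was -0.002 without Ik1ER ethanol replicate 2, with 39 genes above 0, and 0.09 without Ik1ER ethanol replicate 1. With each array centred on its median the values became 0.26 for the lower and 0.07 for the higher genes. No test was made of these shares, since genes are not independent replicates. The counts by unadjusted p also rest on the same pooled spread per gene as the 4OHT calls, and are not independent of them.

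Over all calls the ethanol values were near 0. The 532 genes called higher in 4OHT had a median of 0.05 in ethanol, and the 396 called lower a median of 0.03. Of the former 354 (66.5%) and of the latter 233 (58.8%) were above 0. Read the other way, of the 553 genes higher in ethanol at an unadjusted p under 0.05, 54 (9.76%) were called higher and 31 (5.61%) lower on the 4OHT arrays. Of the 402 lower in ethanol, 19 (4.73%) were called lower and 9 (2.24%) higher. The shares among all genes were 2.92% higher and 2.18% lower. Both comparisons use the same pooled spread per gene, so a gene of small spread tends to pass in both. These shares are therefore not independent readings, although the group means come from different arrays. The difference between the line differences itself was called for 229 genes (1.26%), 113 higher (0.621%) and 116 lower (0.638%) in 4OHT than in ethanol. That count was 66 and 71 without MigR1 ethanol replicate 1 or 2, 78 and 51 without MigR1 4OHT replicate 1 or 2, 103 and 109 without Ik1ER ethanol replicate 1 or 2, and 100 without both Ik1ER replicate 2 arrays.

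**Figure D4:**
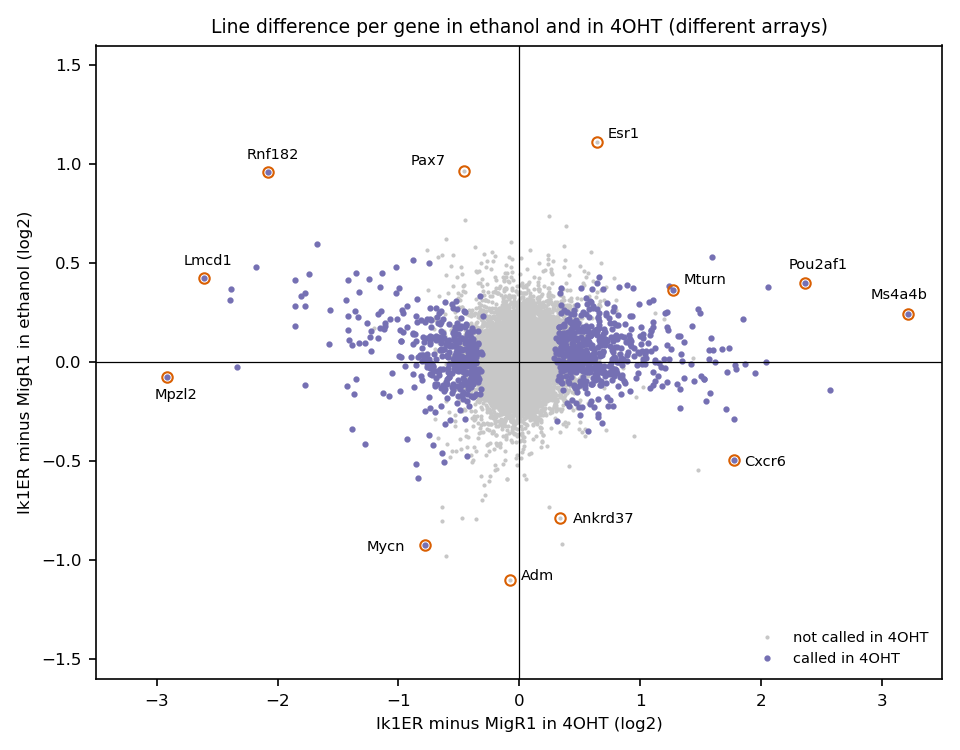
Difference between Ik1ER and MigR1 cells per gene in 4OHT (log2, horizontal axis) and in ethanol (log2, vertical axis), from different arrays, for 18193 genes. The 928 genes called in 4OHT (coloured) spread from -2.91 to 3.22 along the horizontal axis, while in ethanol nearly all genes stay within 1 of 0, and the labelled Mycn lies apart below 0 in both.

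Of 33 gene lists, with 483 genes measured, limma called 0 in ethanol (0% of all genes were called). The lists were drawn up with earlier results of these data known. A share of list genes beside that of all genes, here and below, is therefore a description and not a test. At an unadjusted p under 0.05 there were 34 list genes (7.04%), beside 5.25% of all genes, and the interval lay inside 1 for 472 of the 483. The components of the T cell receptor and its signalling lay within a narrow range, from -0.19 to 0.12, with a median of -0.03. Of these 19 genes 5 were above 0, where 52.9% of all genes were. Cd3e was the most positive (0.12) and the adaptor gene Lcp2 (-0.11) and the phosphatase gene Ptprc (-0.10) came next by p. Of the 19, 7 were called higher and 2 lower on the 4OHT arrays, where 2.92% and 2.18% of all genes were. T lineage transcription factors had a median difference of 0.03, with Runx1 at -0.37 (10.44 and 10.40 against 10.38 and 9.71, the last on Ik1ER replicate 2), Myb at 0.13 and Id3 at 0.31. The 1 receptor gene segment entry measured of 19 listed, Tcra, was below the control level.

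Of the 16 measured genes that mark early thymocytes, 7 lay above 0 and 9 below, from -0.47 to 0.25, with a median of -0.03. The 3 of smallest p were all below 0. Il2ra, the alpha chain of the interleukin 2 receptor and a marker of early stages, read 9.30 and 9.42 in MigR1 and 8.99 and 8.80 in Ik1ER cells. The groups were apart, with a difference of -0.47 (SE 0.10, 95% interval -0.70 to -0.23, not called). Il7r, the interleukin 7 receptor gene, read 9.83 and 10.09 against 9.58 and 9.59, a difference of -0.38. Tespa1, a T cell receptor signalling gene, differed by -0.26 in ethanol and was called higher in 4OHT (0.65). The highest value was that of Ly6d (0.25). Notch1, the receptor that commits cells to the T lineage, read 12.34 and 12.36 in MigR1 and 12.05 and 12.06 in Ik1ER cells, a difference of -0.29 (95% interval -0.58 to -0.0027, adjusted p = 0.920). In 4OHT it was called lower (-0.58, adjusted p = 0.0403), a call that was not tested without each array. Of the 25 genes of the Notch pathway 11 lay above 0 and 14 below in ethanol, with a median of -0.04, and Il2ra, itself a target of Notch, was the lowest. Among the other targets Heyl read -0.18, Hes5 -0.15, Hey1 -0.13, Nrarp -0.07, Dtx1 -0.06, Ptcra -0.02, Hes1 0.06, Myc 0.10 and Fjx1 0.16.

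Genes of maturation, homing and egress had a median of -0.09, with 14 of 18 below 0, where 47.1% of all genes were. In 4OHT 9 of them were called higher, beside 2.92% of all genes, and the median was 0.50. The list was drawn up with earlier results of these data known, so that count does not test it. Cxcr6, a chemokine receptor gene, read 5.46 and 5.08 in MigR1 and 4.89 and 4.66 in Ik1ER cells in ethanol. That difference of -0.49 (95% interval -0.95 to -0.04, adjusted p = 0.920) stood against 1.78 in 4OHT. Ccr4 differed by -0.28 and Ms4a6b by -0.16 (1.58 in 4OHT). Foxo1 and Klf2, which control homing receptors, differed by 0.07 and -0.03, and Itgae by -0.10.

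Cell cycle inhibitors had the highest median of the lists with at least 5 measured genes, 0.14. Of the 14 genes 12 were above 0, where 52.9% of all genes were, and 1 had an unadjusted p under 0.05. In 4OHT 5 of them were called higher, beside 2.92% of all genes, and the median was 0.36. Here too the list was drawn up with earlier results of these data known. Cdkn2a, which encodes p16 and p19Arf, read 8.96 and 8.68 in MigR1 and 9.30 and 9.38 in Ik1ER cells (0.51, 95% interval 0.04 to 0.99, adjusted p = 0.920). Tob1 (0.33), Cdkn1a (0.25) and Rbl2 (0.25) followed, and Cdkn2b (-0.14) and Btg2 (-0.11) lay below 0. Among p53 targets, with a median of -0.01, Gadd45a (0.31) and Ccng1 (0.18) had the largest values in ethanol of its genes of smallest p and were called higher in 4OHT (0.59 and 0.35). Genes of G2 and mitosis (median -0.01, Aurkb 0.13, Mki67 -0.17), of S phase (0.00, Ccne2 0.23) and of the BCL2 family (0.02, Mcl1 0.10) stayed near 0. So did the ribosome biogenesis genes driven by MYC, with a median of -0.04, Utp20 at -0.26 and Ddx21 at 0.23. Of these 20 genes 14 were below 0, where 47.1% of all genes were.

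Immediate early and NF-kB genes lay above 0 in 18 of 23 cases, where 52.9% of all genes did, with a median of 0.08. Dusp2, a phosphatase of MAP kinases, read 8.67 and 8.47 in MigR1 and 8.95 and 8.94 in Ik1ER cells (0.37, adjusted p = 0.920), and Jun differed by 0.36. Fos read 4.70 and 4.76 against 4.79 and 5.73, and only Ik1ER replicate 2 stood above the rest (0.53). Ier3 went the other way (-0.41) and was called lower in 4OHT (-1.28). Interferon response genes (median 0.07, Ifih1 0.29, Ifit2 0.27) and the interferon-gamma GTPases with the Ifi200 family (0.06, Ifitm2 0.34, Irgm2 0.27, Aim2 0.24) were mixed. Hfe, an MHC class I-like gene of iron balance, read 7.31 and 7.14 in MigR1 and 7.60 and 7.74 in Ik1ER cells, a difference of 0.45 (95% interval 0.17 to 0.72, adjusted p = 0.920). In 4OHT it differed by -1.74, again with opposite signs. The integrin gene Itga6 differed by 0.31 in ethanol and -0.62 in 4OHT, and the myeloid receptor gene Cd14 by 0.18 and -1.12. Cd9 (0.45) and Alcam (0.39) were the other adhesion genes of smallest p.

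Genes of the integrated stress response had a median of -0.02. Trib3 differed by -0.29, Atf3 by -0.17 and Dnajb9 by 0.22. Ddit4, an inhibitor of mTORC1 named here after its values were seen, had the lowest value of all list genes, -0.98, with 11.60 and 11.65 in MigR1 and 11.21 and 10.08 in Ik1ER cells. Its SE of 0.49 was large, and replicate 2, the lower Ik1ER array, is the one whose control probe sets stood apart. Sterol synthesis genes read from -0.23 to 0.21, with Nsdhl at 0.18, Insig1 at 0.21 and Dhcr7 at 0.18. Targets and partners of the estrogen receptor had a median of 0.07 with Esr1 itself among them, and the coactivator gene Ncoa2 differed by 0.30 and Cyp1b1 by -0.25.

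Genes of other lineages gave no call and medians between -0.04 and -0.01 for B cell, myeloid, cytotoxic, erythroid and stromal markers. By p, beside Pou2af1, Ighm (0.32) and Cd79a (-0.22) came first in the B cell list, Cebpa (-0.31) and Lyz1 (0.19) with Cd14 in the myeloid list, and Gzma (-0.19), Prf1 (-0.14) and Eomes (0.12) in the cytotoxic list. Pecam1 (-0.19), Krt8 (0.14) and Krt18 (-0.14) had the smallest p of the stromal list, whose values ran from -0.19 to 0.35, and Klf1 (0.08), Hba-a1 (0.08) and Pf4 (0.08) that of the erythroid list. Progenitor and leukaemia factors, most of them below the control level, had a median of -0.01, with Lmo1 at -0.20, Lyl1 at 0.21 and Gata2 at -0.15. Among ion channel genes Kcna3 read 8.12 and 8.15 in MigR1 and 7.94 and 7.91 in Ik1ER cells (-0.21), and was called higher in 4OHT (0.47), while P2rx4 differed by 0.18. Xist, the RNA of the inactive X chromosome, was high in both lines (12.56 and 12.80 against 12.41 and 12.71), while the Y-linked genes Usp9y and Eif2s3y lay below the control level. Imprinted genes differed by -0.15 to 0.26 (Ndn 0.21, Igf2 -0.13, Peg10 0.26). Il18r1 (0.23), Psmb10 (-0.14), B2m (0.12), Rsad2 (0.13), Gins2 (0.14), Ccne1 (0.17), Maml1 (0.25), Chd4 (-0.20), Phlda3 (-0.17), Bad (-0.09), Bmf (0.18), Wdr43 (-0.15) and Kif20a (0.10) complete the genes of smallest p in their lists.

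**Figure D5:**
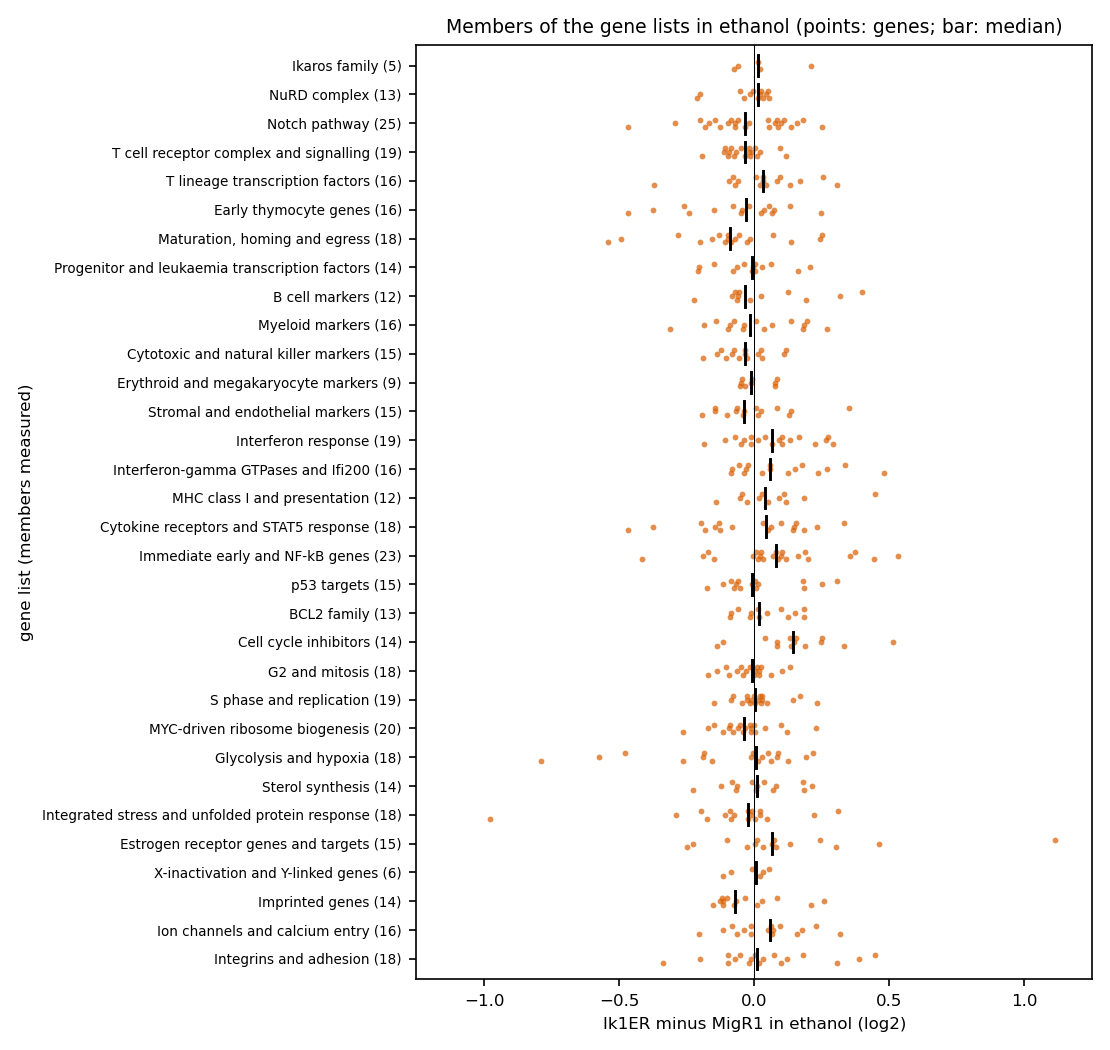
Difference between Ik1ER and MigR1 cells in ethanol (log2, horizontal axis) for the members of the gene lists with at least 5 measured genes (vertical axis, number measured in parentheses), with points for genes and a bar for the median. No gene shown was called, the medians run from -0.09 to 0.14, and the points furthest from 0 are Esr1 (1.11), Ddit4 (-0.98) and Ankrd37 (-0.79).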

How the data were processed

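Total RNA of the 8 samples was biotin-labelled and hybridised to Affymetrix arrays. The deposited log2 expression values, 1 column per array, are RMA output, per the submitters' processing notes; no source used here gives a version or genome build. RMA puts arrays on a common scale, so a global shift cannot be seen, and compresses the differences of dim genes. Of 45101 probe sets, 64 controls, 932 with several symbols and 9160 without a listed symbol were left out of the gene tests. The brightest probe set stood for a gene (_x_at only where there was no other), giving 18193 genes, of which 18032 matched RefSeq by identifier.

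Group means were fitted to all 8 arrays (4 residual degrees of freedom) with lmFit and eBayes of limma 3.58.1 in R 4.3.3, adjusted by Benjamini and Hochberg within a contrast, and called under 0.05. The contrasts were Ik1ER against MigR1 in ethanol, the same in 4OHT, and their difference. Contrasts of 4OHT against ethanol within a line were not used here. Errors are standard errors with the spread pooled over groups. The script was tested on simulated data. Members and gene lists were chosen with earlier results of these data known. Named are the 10 genes of smallest p per direction (since fewer than 12 were called), the 3 of smallest p per list, the 10 largest line differences per direction in 4OHT and the Ikaros family and Esr1 probe sets. Other genes were named after their values were seen. Leaving out both Ik1ER replicate 2 arrays, and the repeat readings of the 4OHT calls in ethanol, were chosen after seeing the data.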

Additional observations from a re-analysis of the deposited data

Results flagged for a closer look

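The line difference was not the same in ethanol and in 4OHT for 229 genes by the limma test of that difference. Of the genes named, 33 were among them, 17 higher and 16 lower, with the line difference in 4OHT minus that in ethanol as follows on the log2 scale. Values above 0 were 2.97 for Ms4a4b, 2.71 for Ms4a4d, 2.27 for Cxcr6, 2.05 for Myl4, 2.01 for Gimap7, 1.97 for Pou2af1, 1.88 for Dynlrb2, 1.83 for Serpini1, 1.73 for Ms4a6b, 1.67 for AA467197, 1.63 for Arhgap20, 1.22 for Itgae, 1.03 for Adm, 0.91 for Mturn and for Tespa1, 0.79 for Pecam1 and 0.67 for Kcna3. Values below 0 were -3.04 for Rnf182, -3.03 for Lmcd1, -2.84 for Mpzl2, -2.75 for 2300002M23Rik, -2.71 for Scn4b, -2.66 for Ifi204, -2.28 for Cryab, -2.19 for Hfe, -2.14 for 2310030G06Rik and for Ifitm2, -2.04 for Uaca, -1.42 for Pax7, -1.30 for Cd14, -0.92 for Itga6, -0.81 for Fjx1 and -0.70 for Npnt. Most of these genes were named for their value in 4OHT or their p in ethanol, so these values are not independent of that choice. The calls of AA467197 and Arhgap20 were lost without MigR1 4OHT replicate 2 (adjusted p = 0.0525 and 0.0679), and that of Pou2af1 without that array or MigR1 ethanol replicate 1 (up to 0.0554). Myl4 and Mturn lost theirs without 2 and 3 MigR1 arrays in turn (up to 0.0598 and 0.0622), and Ifi204 without any 1 of 4 arrays (up to 0.0647). Npnt kept its call without Ik1ER 4OHT replicate 2 and not without the others (up to 0.113), and also lost it with the mean over its probe sets (0.0534). Pax7 lost its call without any 1 of 6 arrays (up to 0.139). Itgae, Tespa1 and Pecam1 lost theirs without any 1 of 7 arrays (up to 0.178, 0.168 and 0.14), Kcna3 of 6 (up to 0.105), Fjx1 and Itga6 of 5 (up to 0.0799 and 0.0743), and Cxcr6 without MigR1 ethanol replicate 1 (0.0511). Itga6 and Itgae also lost theirs with the mean over their probe sets (0.0798 and 0.053).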

How the results depend on the processing

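The ethanol count of 0 was the same under each setting run except that it was 1 with the mean over all probe sets of a gene (Ikzf1, also the 1 list gene called then) and 1 with the transferrin receptor 3' to 5' difference as a covariate (Mycn, -0.93, adjusted p = 0.0372). Without each array in turn it was 0, for the list genes too. The 4OHT count of 928 became 429 with only the arrays compared, 141 with a difference of at least 1, 594 without both Ik1ER replicate 2 arrays, and 242 to 812 without each array in turn. The 4OHT calls of genes named only from the gene lists were not tested under these settings. The count of 229 became 439 with trend and robust settings, 575 with the covariate, 112 with a difference of at least 1, 100 without both Ik1ER replicate 2 arrays, and 51 to 269 without each array in turn. It could not be had from the arrays of 2 groups alone. Without each array in turn, the Ikzf1 probe set that differed most did so over both treatments by 2.51 to 2.78 (exact permutation p = 0.0286), and Esr1 by 0.73 to 1.03 (exact permutation p up to 0.0571). The other probe sets ran from -0.15 to 0.0039 (Ikzf1), where 0.0039 turned the sign without Ik1ER 4OHT replicate 1, from -0.0813 to 0.0009 (Esr1, on the lower side), which turned without Ik1ER ethanol replicate 1, and from 0.0012 to 0.0626 (Esr1, on the higher side). Of 131 named genes, 13 that were not called changed sign in ethanol under some setting. Array centring raised the unadjusted count from 955 to 1246. With the replicate number as a block the counts were 0, 1082 and 335, with 1166 genes at an unadjusted p under 0.05 in ethanol. Deviations of same-numbered samples correlated by 0.102 between the 2 ethanol groups, 0.269 between MigR1 ethanol and 4OHT and 0.448 between Ik1ER ethanol and 4OHT, and by -0.069 to 0.093 between the other groups, so that arrays of a line are not fully independent across treatments. The labels do not say that the numbers pair the samples. With 2 arrays a group, the 95% interval reached 0.22 to either side at the median gene.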
